A study of Mus musculus with 62 samples.

Results

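Regions of acetylated chromatin at gene starts that were shared by all 4 muscles studied are described here. They were chosen by merging the H3K27ac peak lists of extensor digitorum longus (EDL), quadriceps (Quad), soleus (Sol) and diaphragm (Dia) wherever peaks overlapped by at least 1 bp, and by keeping each merged region that held a peak of all 4 muscles and at least 1 peak that the authors' annotation placed at a promoter. This gave 5444 regions of 51588 merged regions (10.6%) and of 19318 regions common to all 4 muscles (28.2%). The regions are called the shared promoters below. The study profiled muscle of male mice labelled C57BL/6 (C57BL/6J in the study's methods) by ChIP-seq (sequencing of chromatin pulled down with an antibody) and ATAC-seq (sequencing of chromatin cut by a transposase where it is open). H3K27ac (histone H3 acetylated at lysine 27) and H3K4me2 (histone H3 dimethylated at lysine 4) were each measured in 2 libraries for each of 8 groups. EDL, Quad, Sol and Dia came from wild type sedentary mice, EDL, Sol and Dia pooled from several animals per library and Quad from 1 animal per library. The 4 further groups were all Quad: exercised mice with free access to a running wheel for several weeks, taken hours after the last run (Ex), sedentary mice without a wheel (Sed), mice with the label PGC1a Tg(+), which overexpress the coactivator gene Pgc1a under the muscle creatine kinase promoter (mTg), and wild type littermates (Wt). Ex and Sed were wild type, and mTg and Wt were sedentary. Libraries held 11.7 to 24.2 M tags for H3K27ac and 6.41 to 22.7 M for H3K4me2.

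A promoter is the stretch around a transcription start site where general factors, RNA polymerase II and the Mediator complex assemble. H3K27ac marks active promoters and enhancers, and H3K4me2 marks promoters and enhancers whether or not they are strongly active. Many mammalian promoters lie in CpG islands, are GC-rich and serve genes that nearly every cell uses, whereas genes of specialised muscle proteins often have promoters with a TATA box and sites for muscle regulators. EDL and Quad consist mainly of fast, glycolytic fibers, Sol holds many slow, oxidative fibers and Dia is mixed.

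The sequences of 9 shared promoters show the kinds of start site that the class holds. Each line gives the 250 bases before a RefSeq start site, 5' to 3' on the strand of the gene, from the GRCm38.p6 build. Capitals mark matches to searched motifs on either strand. Brd2 (chr17:34122608-34122857, minus strand), a reader of acetylated histones, and Pcbp1 (chr6:86526190-86526439, minus strand), a poly(C)-binding protein, are shown because they were among the shared promoters with the highest and steadiest H3K27ac. Polr2a (chr11:69758634-69758883, minus strand), the largest subunit of RNA polymerase II, and Dusp1 (chr17:26508473-26508722, minus strand), a phosphatase induced by stress and activity, held a peak of the Mediator subunit MED1 in all 4 muscles.
Brd2: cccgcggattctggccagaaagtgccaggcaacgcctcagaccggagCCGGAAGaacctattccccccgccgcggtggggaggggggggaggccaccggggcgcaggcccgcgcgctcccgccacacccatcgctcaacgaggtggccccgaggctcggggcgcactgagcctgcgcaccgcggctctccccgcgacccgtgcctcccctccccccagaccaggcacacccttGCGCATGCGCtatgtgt
Pcbp1: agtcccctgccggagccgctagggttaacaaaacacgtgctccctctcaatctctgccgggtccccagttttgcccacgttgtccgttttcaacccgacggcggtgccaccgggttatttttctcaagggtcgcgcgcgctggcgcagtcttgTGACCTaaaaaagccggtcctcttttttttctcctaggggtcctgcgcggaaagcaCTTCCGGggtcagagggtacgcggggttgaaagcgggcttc
Polr2a: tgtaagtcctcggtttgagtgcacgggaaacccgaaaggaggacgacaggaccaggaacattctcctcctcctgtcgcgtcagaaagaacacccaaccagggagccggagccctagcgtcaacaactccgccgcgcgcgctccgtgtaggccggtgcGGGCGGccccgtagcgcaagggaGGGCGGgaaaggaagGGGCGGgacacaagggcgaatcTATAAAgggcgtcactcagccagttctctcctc
Dusp1: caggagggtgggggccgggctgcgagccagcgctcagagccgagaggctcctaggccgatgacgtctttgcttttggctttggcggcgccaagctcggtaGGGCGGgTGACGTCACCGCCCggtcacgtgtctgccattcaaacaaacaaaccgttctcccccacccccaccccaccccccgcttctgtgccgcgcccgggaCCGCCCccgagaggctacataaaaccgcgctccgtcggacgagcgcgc

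Myh4 (chr11:67237562-67237811, plus strand), the myosin heavy chain of the fastest fibers, and Csrp3 (chr7:48848052-48848301, minus strand), a muscle LIM protein, are the shared promoters with the largest differences in H3K27ac between Quad and Sol, Myh4 higher in Quad and Csrp3 higher in Sol. Sdhd (chr9:50603850-50604099, minus strand), a membrane subunit of respiratory complex II, and Uqcrfs1 (chr13:30545317-30545566, minus strand), the iron-sulfur subunit of complex III, were among the respiratory chain promoters with the largest mTg minus Wt differences in H3K27ac, Sdhd having the largest. Slc25a4 (chr8:46211063-46211312, minus strand), the ADP/ATP carrier of muscle mitochondria, was picked because MED1 was called there in all 4 muscles and it holds the motif TCTCGCG. These last 3 were chosen after their values were seen.
Myh4: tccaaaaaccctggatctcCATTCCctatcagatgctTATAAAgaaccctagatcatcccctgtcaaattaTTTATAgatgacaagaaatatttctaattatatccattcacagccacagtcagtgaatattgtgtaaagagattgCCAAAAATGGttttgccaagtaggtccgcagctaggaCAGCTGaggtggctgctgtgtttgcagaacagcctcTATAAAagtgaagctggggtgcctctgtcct
Csrp3: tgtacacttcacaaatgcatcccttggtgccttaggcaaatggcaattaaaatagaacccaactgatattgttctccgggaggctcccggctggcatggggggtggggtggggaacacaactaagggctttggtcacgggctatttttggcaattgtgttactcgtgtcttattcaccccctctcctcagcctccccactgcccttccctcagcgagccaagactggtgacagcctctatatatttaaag
Sdhd: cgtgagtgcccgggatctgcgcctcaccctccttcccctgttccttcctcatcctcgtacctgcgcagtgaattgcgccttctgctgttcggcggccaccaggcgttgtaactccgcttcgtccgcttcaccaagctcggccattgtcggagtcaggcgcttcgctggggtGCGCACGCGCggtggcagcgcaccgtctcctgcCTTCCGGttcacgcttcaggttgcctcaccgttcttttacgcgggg
Uqcrfs1: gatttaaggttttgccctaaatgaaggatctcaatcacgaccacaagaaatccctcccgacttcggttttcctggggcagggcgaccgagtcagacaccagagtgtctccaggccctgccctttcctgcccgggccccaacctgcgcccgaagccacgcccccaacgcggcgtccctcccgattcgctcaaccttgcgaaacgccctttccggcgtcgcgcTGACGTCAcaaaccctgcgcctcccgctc
Slc25a4: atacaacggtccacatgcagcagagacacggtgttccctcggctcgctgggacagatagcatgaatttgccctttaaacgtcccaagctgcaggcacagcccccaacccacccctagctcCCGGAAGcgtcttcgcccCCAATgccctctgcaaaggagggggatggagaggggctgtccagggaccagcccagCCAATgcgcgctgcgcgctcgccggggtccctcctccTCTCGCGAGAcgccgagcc

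Brd2 holds the ETS motif CCGGAAG and an NRF1 motif whose bases begin at positions -203 and -17 from the start site. Polr2a holds the GC box GGGCGG 3 times and the TATA box TATAAA at -33. Dusp1 has a cAMP response element at -143, directly before 1 of its 3 GC boxes. Myh4 holds the TATA box 3 times, nearest at -31, the E-box CAGCTG at -67, a CArG box (bound by serum response factor) at -104 and the MCAT motif CATTCC at -231. Csrp3 held none of the 15 motifs in this window. Sdhd carries an NRF1 motif at -79 and an ETS motif at -46, Uqcrfs1 a cAMP response element at -29, and Slc25a4 TCTCGCG on both strands, overlapping, at -19 and -16, besides an ETS motif and CCAAT 2 times. A match is a description of letters and not a bound site.

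Acetylated regions that carried a promoter annotation were more often shared than the rest. Of 7264 merged regions with a promoter annotation, 5444 (74.9%) held peaks of all 4 muscles, 909 of 3, 501 of 2 and 410 of 1, whereas 31.3% of merged regions without it were common to all 4. Since the shared promoters were defined by these H3K27ac peaks, this is a description and was not tested. The annotation differed between muscles within a region, because it rests on the distance of each peak's centre from the start site: it was given in all 4 muscles for 2242 shared promoters, in 3 for 957, in 2 for 1026 and in 1 for 1219. The other 13874 common regions fell into 3152 with a peak that spans a start site but is centred elsewhere, called start-spanning regions below, and 10722 that span none, called distal regions. Every peak centred between -1000 and 100 bp from its start site was annotated as a promoter, and some peaks centred further downstream were too: in EDL 4325 of 4806 annotated peaks lay within these limits, and the furthest lay at 943 bp. Just inside the limits were Gpr4 (nearest peak centre at -1000 bp), Mir8091 (-991 bp) and, downstream, Fn1, Ctps and Itfg2 (nearest at 100 bp). Just outside were Txn2 (-1003 bp), the muscle intermediate filament gene Des (-1018 bp), and Ampd3, Dnajc3 and P4ha2 (101 bp).

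The shared promoters were narrower than the other common regions. Against start-spanning regions the choice itself favours this, because a wide region that runs from a start site into the gene is centred elsewhere. Their median width was 2621 bp (interquartile range 1938 to 4144.5 bp, extremes 523 and 43811 bp), compared with 3858.5 bp for start-spanning and 3647 bp for distal regions, and they covered 20.4 Mb in all. Only 269 (4.94%) were wider than 10 kb, compared with 13.6% of start-spanning regions. Among the widest were those at Mir133a-2, a muscle microRNA that restrains smooth muscle and growth genes (43811 bp), Mylk4, a kinase of striated muscle (42995 bp), Tob2, an antiproliferative protein (35887 bp), and Cdc42bpg, a kinase (35603 bp). The annotation named a protein-coding gene at 5088 (93.5%) and a non-coding RNA at 339.

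Known marks of muscle checked the tissue. Promoters of Acta1 (skeletal actin), Ttn (titin), Myh4 and Myh1 were shared promoters, and Ckm (muscle creatine kinase) and Des lay in other regions common to all 4 muscles. Myh2 and Myh7, the myosins of oxidative fast and slow fibers, had start sites acetylated in some but not all muscles. Of 20 liver genes and 20 brain genes none had a shared promoter, and of 20 testis genes 1 had (Tnp2).

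H3K27ac at the shared promoters was higher per kb than at other common regions in every one of the 16 libraries. For a level, the authors' log2 values were made linear, summed over the peaks in a region and divided by the width of those peaks in kb. The log2 of the result was taken. Levels can be set beside each other within a list but not tested between lists, which were normalized separately. The median level of the shared promoters was 7.28 and 7.31 in the EDL libraries, 6.89 and 6.90 in the Quad libraries, 6.94 and 6.90 in the Sol libraries, and 7.41 and 7.45 in the Dia libraries. In the further Quad groups it was 7.06 and 7.29 in Sed, 7.20 and 6.85 in Ex, 6.57 and 6.51 in Wt, and 6.76 and 6.53 in mTg. Medians of replicates lay closest in Quad and furthest apart in Ex. The shared promoters exceeded the median of all other common regions by 0.88 log2 in Dia, 0.81 in EDL, 0.76 in Sol and 0.75 in Quad, which describes the lists that chose them.

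**Figure D1:**
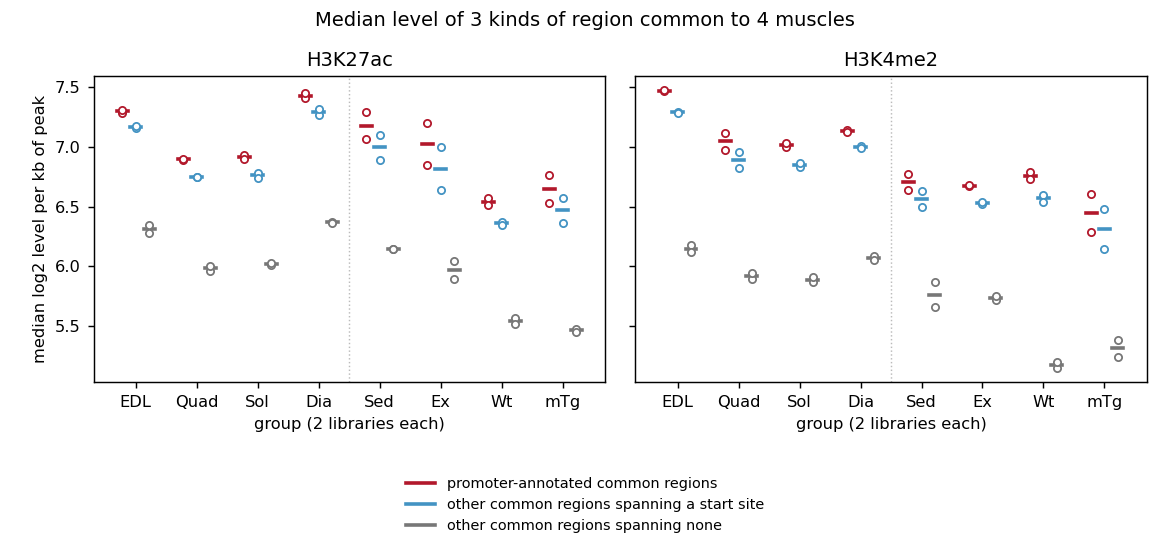
Median log2 level per kb of peak (vertical axis) of shared promoters (red), start-spanning regions (blue) and distal regions (grey) in the 8 groups, for H3K27ac and H3K4me2, with a circle for each library and a bar at the mean of the 2. In each library the shared promoters lie highest, start-spanning regions just below and distal regions lowest, and heights are not comparable between groups because each list was normalized by itself.

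In the 4 groups whose libraries had no part in the choice the difference was of the same size: 0.87 in Sed, 0.88 in Ex, 0.83 in Wt and 0.95 in mTg, with a mean of 0.88 (SD 0.051, n = 4 groups, 1.84-fold). An exact sign-flip permutation test over these groups (two-sided) gave p = 0.13, the smallest it can give with 4 groups, so it cannot pass 0.05. H3K4me2, a mark the choice did not use, was also higher at the shared promoters in 8 of 8 groups. Its difference was 1.01 in EDL, 0.83 in Quad, 0.83 in Sol, 0.71 in Dia, 0.67 in Sed, 0.65 in Ex, 1.20 in Wt and 0.61 in mTg. The mean was 0.81 (SD 0.20, n = 8 groups, 1.75-fold), and the exact sign-flip permutation test gave p = 0.00781, the smallest it can give. The groups share the same regions and most are Quad, so they are not independent samples. Wt stood highest and mTg lowest of the 8, and the mTg list was also the one with the shallowest library (6.41 M tags). A level exists only where a peak was called, and H3K4me2 was called at 70.7% of distal regions in Wt and 36.3% in mTg. The part of these missing regions in the differences was not tested.

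Most of that difference lay between start sites and distal sites. Against start-spanning regions alone the mean difference fell to 0.155 for H3K4me2 (SD 0.0211, 8 groups) and 0.187 for H3K27ac (SD 0.0139, 4 groups), and against distal regions alone it was 1.16 and 1.07. It was present in every group in both comparisons. Among regions of 2 to 4 kb, where width is nearly matched, it was 0.94 for H3K4me2 and 1.21 for H3K27ac.

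Presence of the marks was counted without any level. It set the shared promoters apart from distal regions but not, for H3K27ac in all 8 groups, above start-spanning regions. The share of shared promoters that held an H3K27ac peak in the other Quad groups was 98.3% in Sed, 97.8% in Ex, 95% in Wt and 90.1% in mTg. An H3K4me2 peak was found at 99.3% in EDL, at 95.3% in mTg and at shares between these in the other groups. In distal regions H3K4me2 was called at 72.5% in EDL and 36.3% in mTg. All 8 groups had H3K27ac at 4605 shared promoters (84.6%), 87.3% of start-spanning and 62.5% of distal regions, and all 8 had H3K4me2 at 5088 (93.5%), 92.9% and 22.7%. Only 11 shared promoters had no H3K4me2 peak in any group. Named by that count, they include Tyrobp (an adaptor of immune receptors), Krt7 (a keratin), Lao1 (an amino acid oxidase) and Ube2h (a ubiquitin conjugating enzyme), with H3K27ac percentiles of 14.4, 4.74, 5.62 and 25.4 among the common regions, averaged over the 4 muscles. Tissue was taken whole, and fewer cells of a type and less signal per cell cannot be told apart in such libraries.

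Brd2 was the highest shared promoter. By the mean percentile of H3K27ac level per kb over the 4 muscles, ranked among all 19318 common regions, the 10 highest were Brd2, B330016D10Rik, Epc1 (a subunit of the NuA4 acetyltransferase complex), Pcbp1, Hnrnpa2b1 (an RNA-binding protein), Hivep2 (a zinc finger factor), 5031425E22Rik, Cox20 (an assembly factor of cytochrome oxidase), Rbm39 (a splicing factor) and Ddx5 (an RNA helicase). This ranking used the lists that chose the regions. Brd2 had a percentile of 99.99, and its H3K27ac level was 9.04 and 9.10 in EDL, 9.16 and 9.15 in Quad, 8.92 and 8.99 in Sol, 9.60 and 9.66 in Dia, 8.47 and 8.77 in Sed, 8.80 and 8.34 in Ex, 8.32 and 8.17 in Wt, and 8.73 and 8.50 in mTg. Each of these libraries placed Brd2 near the top of its own list, and its percentile varied by 0.118 points over the 8 groups.

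Percentiles that hardly moved were a mark of the top of the class. The 5 shared promoters with the smallest range of percentile over the 8 groups, among those above the median, were B330016D10Rik (0.0736 points), Brd2, Pcbp1 (0.189), Hivep2 (0.245) and Hnrnpa2b1 (0.347), all of which are also among the 10 highest. A percentile near 100 has little room to move. H3K4me2 did not rank them as high: its mean percentile over the 4 muscles was 92.7 at Brd2, 94.5 at Pcbp1, 88.2 at Hivep2 and 83.7 at Ddx5.

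MED1, a Mediator subunit that links enhancers and promoters to the polymerase, was called in 1 library per muscle and had no part in the choice. A MED1 peak overlapped 15.7% of shared promoters in Sol (857, Wilson 95% interval 14.8 to 16.7%), 14.7% in Quad (798, 13.7 to 15.6%), 13.0% in Dia (706, 12.1 to 13.9%) and 3.07% in EDL (167, 2.64 to 3.56%). The EDL list holds 834 peaks, compared with 4070 in Sol, 3593 in Quad and 2145 in Dia, and the order of the muscles moves with those numbers: with the 834 top-scoring peaks of each, the shares were 8.06% in Dia, 7.07% in Quad and 6.85% in Sol. Start-spanning regions, which are wider, had shares of 14.1% in Quad, 16.1% in Sol, 11.4% in Dia and 3.65% in EDL. Among regions of 2 to 4 kb the share was 15.3% in shared promoters and 10.2% in start-spanning regions in Quad, 16.9% and 15% in Sol, 14% and 8.48% in Dia, and 3.06% and 2.83% in EDL. At all widths, distal regions had much lower shares (2.35% in Quad, 3.39% in Sol, 2.51% in Dia and 0.83% in EDL). Shared promoters held 33.9% of all Dia MED1 peaks, 23.4% of those of Quad, 22% of those of Sol and 21.1% of those of EDL. The depth of these libraries is unknown, since their lists hold no totals, and the intervals cover counting error only.

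**Figure D2:**
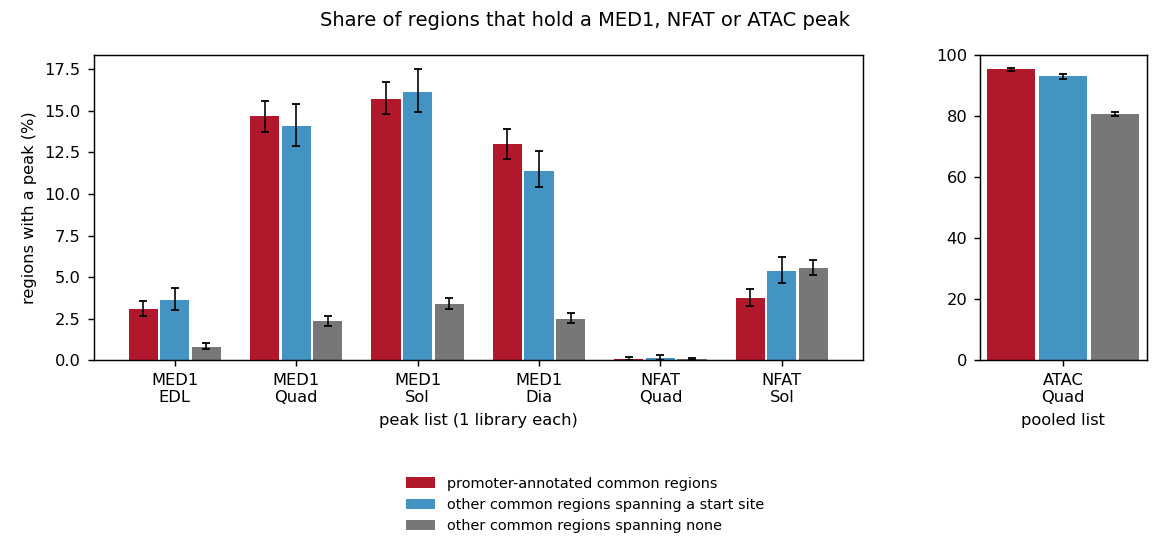
Share of regions (percent, vertical axis) that hold a MED1 peak in each muscle, an NFAT peak in Quad or Sol, or an ATAC peak in Quad, for shared promoters (red), start-spanning (blue) and distal regions (grey), with Wilson 95% intervals as error bars. For MED1 in Quad, shared promoters (14.7%) and start-spanning regions (14.1%) stand far above distal regions (2.35%), and ATAC lies at 95.2% of shared promoters.

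MED1 was called in no muscle at 3721 shared promoters (68.4%), in 1 muscle at 1137, in 2 at 405, in 3 at 143 and in all 4 at 38 (0.698%). The median H3K27ac percentile rose along this order, from 65.2 with no MED1 to 81.1, 90.5, 93.6 and 94.4 with MED1 in 1, 2, 3 and 4 muscles. H3K4me2 percentiles ran from 69.9 to 76.6, 79.6, 81.9 and 82.4, and median widths from 2438 bp to 2811, 3367, 3503 and 3930.5 bp. These are descriptions over regions. Width moved with the number of muscles, and its part was not tested.

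The 38 shared promoters with MED1 in all 4 muscles included small nuclear RNA, polymerase, signalling and mitochondrial genes. The 10 with the highest MED1 score in Quad, in tags per peak scaled to a common library size, were Rnu11, Eapp, Polr2a, 2900060B14Rik, Dusp1, Slc25a4, Ak1, Agbl5, Ube2d-ps and Mynn. At Rnu11, the U11 RNA of the minor spliceosome, the score was 57.5 in Quad, 40.4 in Sol, 25.6 in Dia and 25.2 in EDL. At Polr2a the scores were 38.3, 28.1, 31.3 and 27.6 in the same order, and at Slc25a4 they were 23, 17.5, 13.6 and 12.6. Quad gave the highest score at these 3, which the ranking by Quad score favours, so it says nothing about the muscles. Agbl5 (a carboxypeptidase of tubulin) and Mynn (a zinc finger protein) had their highest scores in Sol, 40.9 and 31.6.

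NFAT, a transcription factor moved to the nucleus by calcineurin, was seldom called at the shared promoters. Its Quad list of 485 peaks met 4 of them, and its Sol list of 39661 peaks met 203 (3.73%, Wilson 95% interval 3.26 to 4.27%), compared with 5.36% of start-spanning and 5.57% of distal regions. Among regions of 2 to 4 kb the Sol shares were 2.29% in shared promoters, 1.82% in start-spanning and 3.91% in distal regions. The lower share than in start-spanning regions thus did not hold at similar width. The NFAT peak numbers of these lists, 1 library each, differ widely, and the share for Sol is read only against the other regions of Sol.

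Open chromatin covered nearly the whole class. A peak of the control Quad ATAC list, pooled from 3 libraries (79.0 M tags, 44911 peaks), lay in 95.2% of shared promoters (Wilson 95% interval 94.5 to 95.7%), 92.9% of start-spanning and 80.6% of distal regions. Exactly 1 peak was held by 4245 shared promoters, more than 1 by 935 and none by 264, with a highest number of 8, reached for example at Tob2 and the early gene Nr4a1. The median signal of the strongest peak was 14.9 tags per 10000000 in shared promoters, 13.6 in start-spanning and 8.61 in distal regions, and peaks per 10 kb were 3.12, 2.49 and 2.23. Protein-coding genes were also counted by a peak within 250 bp of at least 1 of their start sites in a class. This held for 86.3% of the genes with a start in shared promoters and 77.9% of those with a start in other common regions. It held for 67.6% in regions of 1 to 3 muscles and 8.06% elsewhere. A gene with starts in several classes counts in each.

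Most shared promoters served 1 protein-coding gene. By start sites of the GENCODE basic set, 4303 held the start of 1 such gene, 933 (17.1%) of 2 or more, and 208 (3.82%) of none, 140 of these with a start of a long non-coding RNA gene. Divergent pairs, with starts on opposite strands within 1000 bp, were found at 663 (12.2%) of shared promoters and at 1.02% of start-spanning regions. Shared promoters with divergent starts had a median H3K27ac percentile of 78.9 and an ATAC peak in 99.1%, those with 1 gene 71.1 and 94.8%, and those without a coding start 49.1 and 86.1%. Counted from the genes, 6126 of 21851 protein-coding genes (28.0%) had a start in a shared promoter, 14.6% in another common region, 12.2% in a region of 1 to 3 muscles and 45.2% in none. For long non-coding RNA genes the share in a shared promoter was 9.08% (922 of 10155).

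Lists of genes by function were set against that 28.0%. The lists of the general machinery and of oxidative metabolism lay above it, as did most muscle lists: 27 of 37 of respiratory complex I, 25 of 42 of complexes II to V, 10 of 18 of the citrate cycle, 12 of 20 of fatty acid oxidation, 54 of 78 ribosomal proteins, 25 of 34 of the core spliceosome, 21 of 24 chaperones, 23 of 34 of translation, 17 of 32 of the proteasome, 25 of 40 of mitochondrial import and ribosome, and 22 of 48 of RNA polymerase II and Mediator. Counts for regulators were 15 of 30 myogenic and fiber-type factors, 12 of 24 activity-induced early genes, 8 of 19 clock genes, 13 of 27 of autophagy and lysosome, and 8 of 20 of atrophy and growth. The lists were written with results of these data known, and no test was run on them.

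Muscle and metabolic genes outside the class were mostly acetylated in all muscles as well, in start-spanning regions or regions centred elsewhere. All 28 genes of sarcomere structure, all 18 fast fiber genes and all 21 of glycolysis and glycogen had starts in regions common to all 4 muscles, but 12, 11 and 8 of them in shared promoters. Of 17 slow fiber genes 11 (64.7%) were common, and only 3 had a shared promoter: Tnnc1 (slow troponin C), Ankrd2 (a stretch-responsive ankyrin protein) and Cd36 (a fatty acid transporter). Widths separate these groups, with medians of 11089 bp in sarcomere and 9831 bp in fast fiber promoters, compared with 2155 bp in ribosomal protein promoters. H3K27ac and H3K4me2 ranked them differently. The median H3K27ac percentile was 87.3 for sarcomere genes, 83.4 for fast fiber genes, 79.0 for ribosomal proteins and 95.2 for complexes II to V. For H3K4me2 it was 51.0, 44.7, 83.7 and 76.8.

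**Figure D3:**
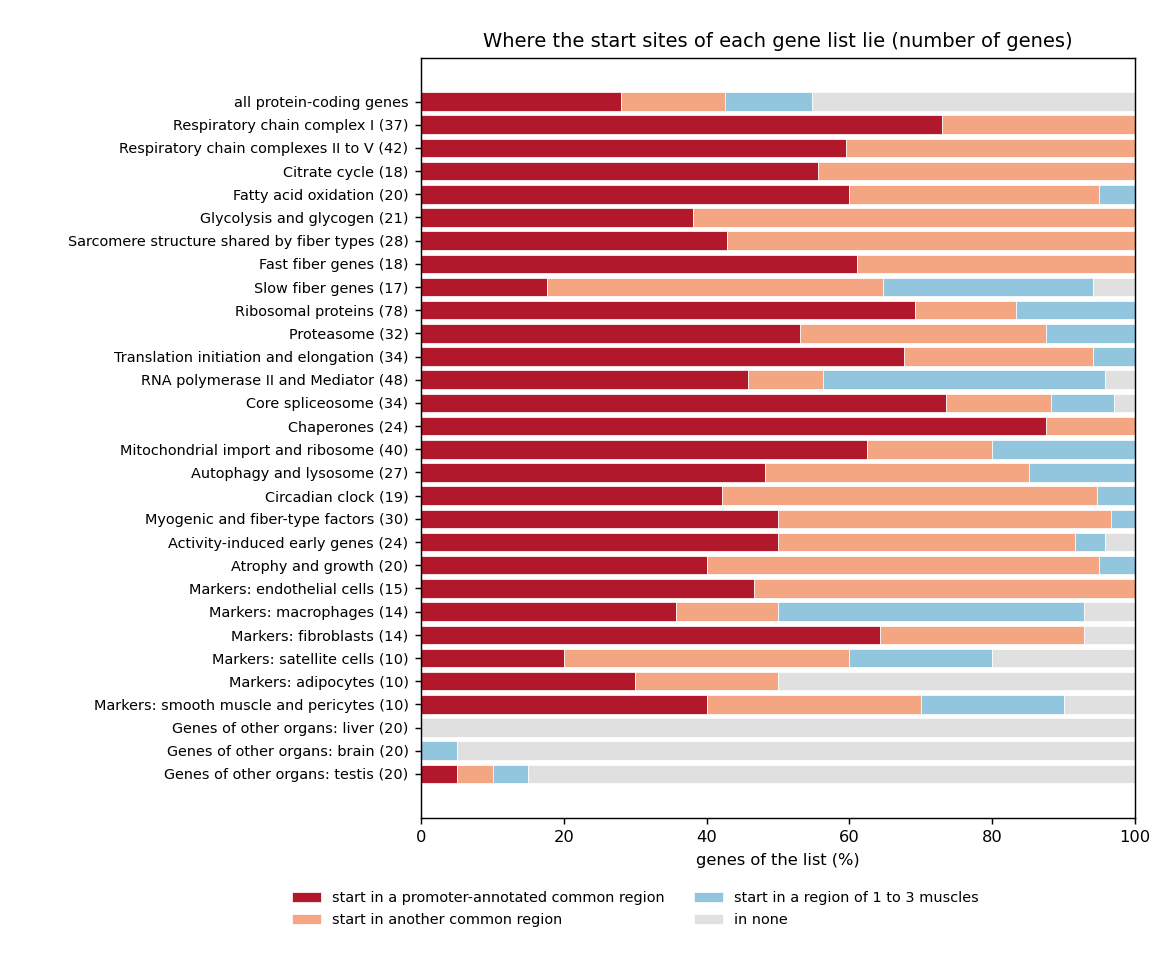
Genes of each list (percent, horizontal axis, number of genes in parentheses) by where their start sites lie: in a shared promoter (red), in another region common to all 4 muscles (orange), in a region of 1 to 3 muscles (blue) or in none (grey). The red share is 28.0% for all protein-coding genes and largest for chaperones (21 of 24), and liver and brain lists have no red share.

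Markers of other cell types in whole muscle were also found. Shared promoters were counted for 7 of 15 endothelial markers, 9 of 14 fibroblast markers, 5 of 14 macrophage markers, 2 of 10 satellite cell markers, 3 of 10 adipocyte markers and 4 of 10 smooth muscle and pericyte markers. Their H3K27ac percentiles were low except for the adipocyte list, with medians of 40.0 for the endothelial, 26.9 for the fibroblast, 6.76 for the macrophage, 9.16 for the satellite cell and 21.9 for the smooth muscle list, and of 84.0 for the 3 adipocyte genes.

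The sequences of the class were rich in CpG. RefSeq promoters of 300 bases (250 before and 50 after the start, GRCm38.p6) could be matched for 4921 genes of shared promoters and 17247 genes in all. Median GC content was 62.0% in shared promoters and 56.67% over all, and an observed to expected CpG ratio above 0.6 was found in 79.5% and 49.1%. In promoters with no H3K27ac region in any muscle it was found in 19.3%, and in the shared promoters with the highest H3K27ac, the top 10% of the class, in 89.9%.

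Searched on both strands, the GC box GGGCGG was in 68.1% of shared promoters and 47.0% of all promoters, the ETS motif CCGGAAG in 22.7% and 12.2%, the NRF1 motif (GCGCA, any base, then GCGC) in 12.4% and 6.75%, and the motif TCTCGCG of BANP and KAISO in 7.03% and 3.69%. The cAMP response element (TGAC followed by GTCA) was in 4.06% and 2.31%, and the YY1 motif (AAGA followed by TGGC) in 5.14% and 3.21%. Each of these was less frequent in promoters of other common regions, at 65.4% for the GC box and 12.3% for ETS. Most of the other motifs were less frequent in the class than over all promoters. The TATA box TATAAA was in 6.20% and 13.3%, the E-box CAGCTG in 13.8% and 15.1%, and MCAT (CATTCC) in 11% and 13.4%. The CArG box (CC, 6 bases of A or T, then GG) was in 1.18% and 1.56%, and AP-1 (TGANTCA) in 4.27% and 7.04%. The nuclear receptor motif AGGTCA was in 11.8% and 14.4%, and the longer ERR motif that contains it (TCA followed by AGGTCA) in 0.203% and 0.307%. The NF-Y motif CCAAT, of a general activator, was in 36.1% and 39.1%. MEF2 (CTA, 4 bases of A or T, then TAG) was the exception, in 0.569% and 0.545%.

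Within the class the motif shares differed by function and by MED1. TCTCGCG was in 28 of 175 shared promoters with MED1 in 3 or 4 muscles (16%), in 5.79% of 3317 with no MED1, and in 10.5% of the 10% of shared promoters highest in H3K27ac. NRF1 motifs were in 7 of 24 complex I promoters (29.2%) and 6 of 19 of complexes II to V (31.6%), of which Sdhd is one. ETS motifs were in 15 of 36 ribosomal protein promoters (41.7%), 9 of 22 spliceosome promoters (40.9%) and 7 of 19 of complexes II to V, and TCTCGCG was in 9 of 36 ribosomal protein promoters (25%). A promoter without a match lacks only these letters in this window.

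Measured per kb of peak, few shared promoters differed in acetylation between muscles. Levels were compared after subtraction of each library's median over all common regions measured, and a region was counted as apart when the group means differed by more than 2-fold and the replicates did not overlap. This is a description for the 4 muscles, whose peaks chose the class. Between Sol and Quad 87 shared promoters (1.60%) were apart, where 4.94% of all 19318 common regions were. For Dia and Quad the count was 112 (2.06%, all common regions 4.72%), for EDL and Sol 48 (0.882%, 3.43%), for EDL and Dia 62 (1.14%, 3.31%), for EDL and Quad 29 (0.533%, 0.901%) and for Sol and Dia 33 (0.606%, 1.82%). In each pair the share was below that over all common regions, and distal regions reached 7.29% between Sol and Quad. The difference between 2 replicates was also less spread at the shared promoters, with an SD of 0.189 in EDL, where it was 0.278 at other common regions. Between EDL and Quad the count was 47 without EDL replicate 2 and 57 without Quad replicate 1, and between Sol and Dia it was 51 without Sol replicate 1 and 57 without Dia replicate 1. Without the division by peak width more shared promoters were apart in every pair, 375 between Sol and Quad and 190 between EDL and Quad. Here and below, shares over all common regions were counted only for levels per kb with all libraries. Whether the class lies below the other regions in the alternatives was therefore not examined.

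H3K4me2 moved even less. The count apart was 21 for Sol and Quad (0.392%, all common regions 2.14%), 13 for Dia and Quad (0.244%, 2.09%), 5 for EDL and Sol (0.0931%, 1.03%), 9 for EDL and Dia (0.168%, 1.06%), 5 for EDL and Quad (0.0931%, 0.853%) and 11 for Sol and Dia (0.206%, 0.878%). Of the small counts, EDL and Dia gave 14 without Dia replicate 2, and EDL and Quad 8 without EDL replicate 1 and 11 without Quad replicate 2.

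**Figure D4:**
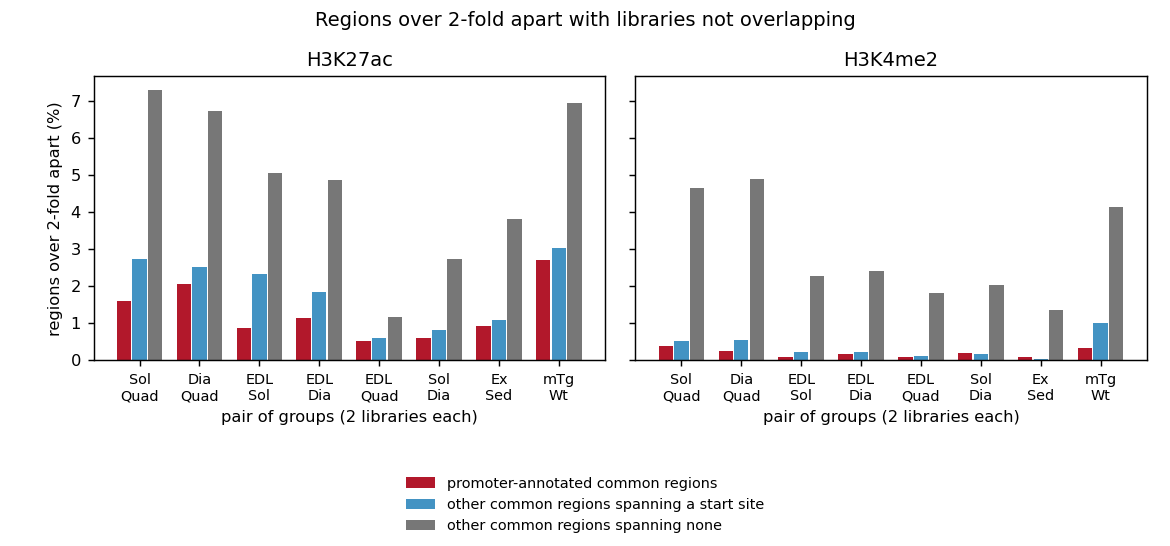
Share of regions more than 2-fold apart with libraries not overlapping (percent, vertical axis) for 8 pairs of groups, for shared promoters (red), start-spanning (blue) and distal regions (grey), for H3K27ac and H3K4me2. For H3K27ac the shared promoters have the lowest share in every pair, reaching 2.70% between mTg and Wt.

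The shared promoters apart between Sol and Quad had Myh4 and Csrp3 as the largest differences each way. Of the fiber-type lists, 4 of 11 fast and 0 of 3 slow fiber promoters were among them. Higher in Quad were 34 (over all common regions 2.58% were), with Myh4, Mybpc2 (fast myosin-binding protein C), Cd24a (a cell surface glycoprotein), Sec11c (a signal peptidase subunit) and Smco1 in front, at Sol minus Quad differences of -3.10, -2.05, -1.70, -1.61 and -1.57 log2. Myh4 had an H3K27ac level of 7.73 and 7.47 in Quad, 7.19 and 7.45 in EDL, 6.17 and 6.33 in Dia, and 5.02 and 3.97 in Sol. Within each muscle's own list this placed Myh4 at a percentile of 93.4 in Quad, 72.6 in EDL, 28.4 in Dia and 1.87 in Sol. Its H3K4me2 level was 6.87 and 6.75 in Quad and 5.28 and 5.02 in Dia, and no H3K4me2 peak was called there in Sol. A MED1 peak at Myh4 was called in Quad alone, at a score of 35.1. Mybpc2 showed 7.81 and 7.66 in Quad and 5.82 and 5.53 in Sol for H3K27ac, and a smaller H3K4me2 difference of -0.52.

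Higher in Sol were 53 (over all common regions 2.36% were), with Csrp3 (1.82), Ttc9 (1.78), Pla2g12a, a secreted phospholipase (1.74), Vav2, a guanine nucleotide exchange factor (1.65), and Slk, a kinase (1.51), in front. Csrp3 had 5.0 and 4.38 in Quad, 6.76 and 6.23 in Sol, 6.74 and 6.75 in Dia, and 6.58 and 6.17 in EDL for H3K27ac, at percentiles of 3.66, 55, 47.2 and 36.1 within the respective lists, Quad having the lowest. H3K4me2 at Csrp3 went the same way, 4.71 and 4.46 in Quad and 5.62 and 5.86 in Sol. At Slk and Vav2 it did not: their H3K4me2 differences were 0.091 and -0.14 log2. By the percentiles given below, the low H3K27ac of Vav2 in Quad was also found in Wt, but not in Sed, which is likewise wild type sedentary Quad.

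Set as the mean of EDL and Quad against the mean of Sol and Dia, few shared promoters were apart in H3K27ac (0.441%, all common regions 2.19%), 15 higher in EDL and Quad (1.47% over all) and 9 higher in Sol and Dia (0.725% over all), and 1 in H3K4me2 (0.0188%, 0.344%). Myh4 led the former at 2.12 log2, with 1700027J07Rik (1.55), Cd24a (1.46), Mir8091 (1.43) and Sec11c (1.39) next. The latter were led by Aknad1 (-1.39), Pcsk6, a proprotein convertase (-1.25), Pla2g4a, a phospholipase (-1.24), 5330439B14Rik (-1.20) and Mir8096 (-1.17). Pcsk6 had 5.02 and 5.03 in EDL, 4.46 and 4.83 in Quad, 5.92 and 5.92 in Sol, and 6.36 and 6.26 in Dia.

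Few shared promoters were apart with exercise or the transgene, in libraries that had no part in the choice. Between Ex and Sed 49 of 5249 shared promoters measured in both were apart in H3K27ac (0.934%, 2.38% of all common regions), 27 higher in Ex (1.01% over all) and 22 higher in Sed (1.37% over all). The count was 106 without Ex replicate 1 and 141 without Sed replicate 2. Higher in Ex, by the largest differences, were Cd274, the PD-L1 immune checkpoint ligand (1.34), Flcn, the folliculin tumour suppressor (1.24), Rab4b, a GTPase of endosomes (1.17), Alad and Cyp2j9, and higher in Sed were Fgf13 (-1.35), Alpk2, Dctn4 (-1.32), Fign (-1.3) and Tha1 (-1.26). Flcn had 7.39 and 7.44 in Sed and 8.67 and 8.23 in Ex. Fgf13 had 6.82 and 6.80 in Sed and 5.64 and 4.87 in Ex. H3K4me2 was apart at 5 (0.0947%, 0.539%; 3 without Ex replicate 2), and its difference at Flcn was 0.045 log2.

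Between mTg and Wt 127 of 4702 were apart in H3K27ac (2.70%, 4.98% of all common regions), 66 higher in mTg (1.87% over all) and 61 higher in Wt (3.11% over all). In H3K4me2 17 were (0.329%, 1.64%), and 58 without mTg replicate 2, which leaves the shallowest library alone. The largest differences toward mTg were at Vav2 (2.68), Colgalt1, a collagen galactosyltransferase (2.61), Chmp1a (1.65), Wrnip1 (1.64) and Slc40a1, the iron exporter ferroportin (1.58). Those toward Wt were at Nr6a1, an orphan nuclear receptor (-2.65), Akr7a5 (-2.27), Smad6, an inhibitor of BMP signalling (-2.04), Plxdc1 (-1.94) and the imprinted non-coding RNA H19 (-1.82). These names for exercise and the transgene were taken by the same measure after the values were seen.

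Vav2 had an H3K27ac level of 3.56 and 4.30 in Wt and 6.84 and 6.37 in mTg. Its percentile within each group's list was 1.73 in Wt, 5.03 in Quad, 64.4 in Sed and 71.2 in mTg. In the authors' list of regions higher in mTg, where the 4 libraries were normalized together over 1 interval, Vav2 had 6.71 and 6.74 in Wt and 7.65 and 7.39 in mTg, a difference of 0.79, so the size rests on how the level was taken. Nr6a1 had 6.69 and 6.13 in Wt and 3.87 and 3.64 in mTg, at percentiles of 67.9 and 1.004. H3K4me2 at Vav2 was 6.98 and 6.91 in Wt and 7.28 and 6.68 in mTg, a centred difference of 0.34. At Nr6a1 it was 7.60 and 7.45 in Wt and 6.84 and 6.59 in mTg, a centred difference of -0.51. The level is set by the peaks called in each list and was not measured over 1 fixed interval.

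Read by gene list, the promoters of oxidative phosphorylation stood higher in mTg than in Wt. Centred library medians of the 27 complex I promoters were 1.29 and 1.22 in mTg and 0.81 and 0.85 in Wt, and those of the 25 of complexes II to V were 1.49 and 1.32 in mTg and 0.97 and 0.99 in Wt. In both lists the mTg libraries lay above the Wt libraries. The median difference was 0.355 log2 with 22 of 27 above 0, and 0.373 with 21 of 25 above 0. Over all shared promoters the median difference was 0.048, with 2561 of 4702 above 0. The citrate cycle (8 of 10 above 0, median 0.235) and fatty acid oxidation (10 of 11, 0.293) were on the same side, glycolysis and glycogen (3 of 8, -0.062) was not, and ribosomal proteins (21 of 46, -0.056) were near all shared promoters. H3K4me2 differed less: 18 of 24 complex I promoters were above 0 with a median of 0.194, and 13 of 25 of complexes II to V with 0.066.

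Sdhd, the complex II subunit shown above with its NRF1 and ETS motifs, had 6.32 and 6.26 in Wt and 7.37 and 7.16 in mTg for H3K27ac, a centred difference of 0.98. Uqcrfs1 had 6.88 and 6.91 in Wt and 8.0 and 7.57 in mTg (0.89). Ndufa8, an accessory subunit of complex I, was higher in mTg in both marks, with 7.02 and 7.13 in Wt and 8.09 and 7.77 in mTg for H3K27ac and 6.12 and 5.96 in Wt and 7.29 and 7.09 in mTg for H3K4me2. Past 2-fold in H3K27ac were Dlst (1.17) and Fh1 (1.09), enzymes of the citrate cycle. Atp5f1 (-0.45), Atp5b (-0.26) and Ndufs1 (-0.22) were among the respiratory chain promoters below 0.

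**Figure D5:**
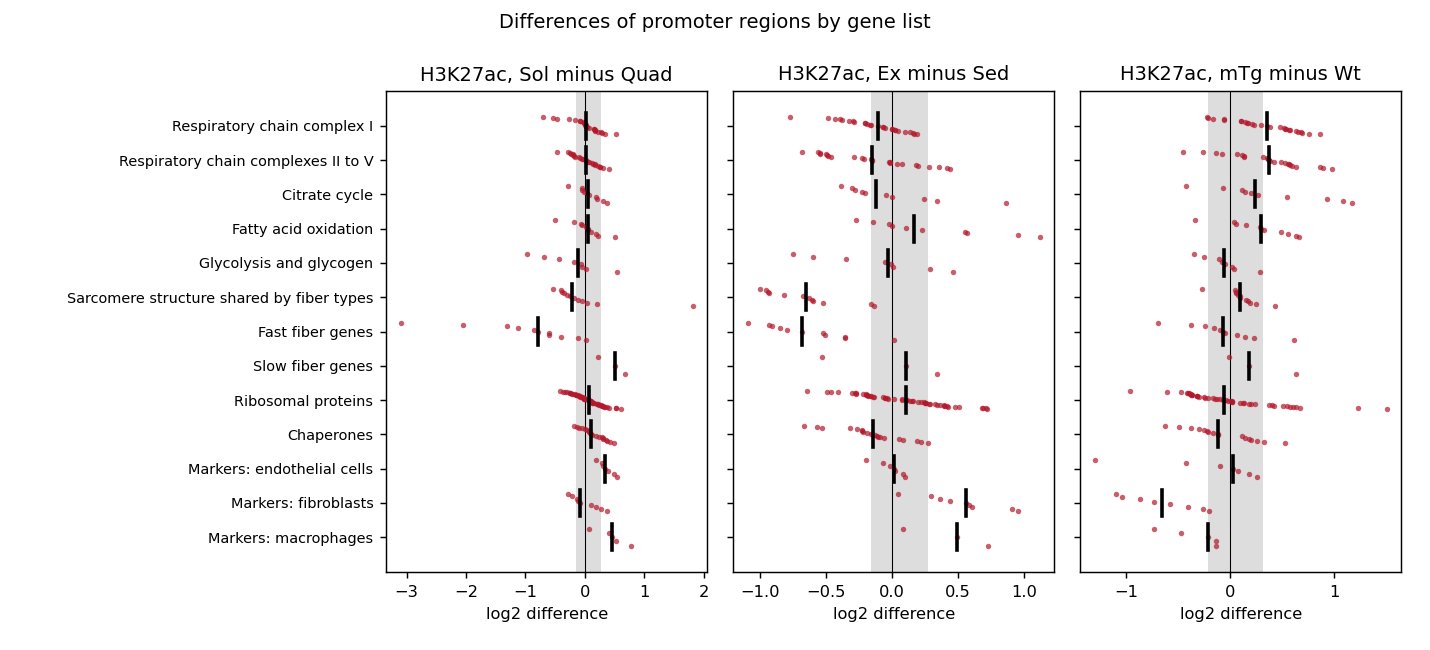
Centred H3K27ac differences (log2, horizontal axes) for Sol minus Quad, Ex minus Sed and mTg minus Wt, with a point for each shared promoter of 13 gene lists and a black bar at the list median; the grey band is the interquartile range of all shared promoters. The medians of the respiratory chain lists lie above 0 for mTg minus Wt, those of the sarcomere and fast fiber lists below 0 for Ex minus Sed, and that of fibroblast markers on opposite sides in these 2 contrasts.

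In exercised Quad the promoters of contractile genes were lower. The 12 sarcomere promoters had centred library medians of 0.086 and -0.15 in Ex and 0.73 and 0.60 in Sed, with all 12 below 0 and a median difference of -0.65 log2. The 11 fast fiber promoters had 0.136 and 0.077 in Ex and 0.78 and 0.60 in Sed, with 10 of 11 below 0 and a median of -0.68. Over all shared promoters the median difference was 0.061, with 2227 of 5249 below 0. The lowest difference was at Gpd1, the cytosolic glycerol phosphate dehydrogenase (-1.09). Other low values were those of Xirp1, an actin-binding protein (-0.999), Actn2, the alpha-actinin of the Z disc (-0.97), the M-band proteins Myom2 (-0.955) and Myom1 (-0.95), and Csrp3 (-0.951). Xirp1 had 7.42 and 7.395 in Sed and 6.46 and 5.95 in Ex. Acadm, of the fatty acid oxidation list, was past 2-fold the other way (1.12), with 6.89 and 6.56 in Sed and 7.76 and 7.53 in Ex. That list had 6 of 10 above 0 and a median of 0.169. Lower values were not confined to contractile genes. Complex I had 18 of 27 below 0 (-0.106), complexes II to V 17 of 25 (-0.152), and myogenic and fiber-type factors 11 of 13 (-0.259). In each of these lists the Ex library medians lay below those of Sed. For H3K4me2 the sarcomere median was -0.11 and the fast fiber median 0.061, and the Ex and Sed library medians overlapped in both lists.

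Markers of fibroblasts moved beside these lists. In mTg minus Wt 8 of 8 fibroblast marker promoters were below 0, with centred library medians of -1.35 and -1.09 in mTg and -0.31 and -0.55 in Wt and a median difference of -0.655, Dcn (-1.10) and Pdgfra (-1.04) past 2-fold. In Ex minus Sed 9 of 9 were above 0, with -0.26 and 0.09 in Ex and -0.76 and -0.44 in Sed and a median of 0.561, which was 0.293 without Ex replicate 2. The macrophage list had 0 of 5 above 0 in mTg minus Wt (-0.213) and 3 of 3 above 0 in Ex minus Sed (0.495), and the endothelial list lay at 0.029 and 0.013. Of 3 adipocyte marker promoters, 3 were above 0 in mTg minus Wt, with centred library medians of 0.721 and 0.792 in mTg and 0.58 and 0.495 in Wt (median 0.443), and 1 of 3 in Ex minus Sed (-0.056). In H3K4me2 the fibroblast list did not follow in mTg minus Wt, with 6 of 9 above 0 and a median of 0.323. In Ex minus Sed it had 7 of 8 above 0 (0.09), and the library medians overlapped in both contrasts. The part of these marker lists in the differences of muscle genes was not tested.

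Between Sol and Quad the fast fiber list was the one furthest below 0. Its 11 promoters had centred library medians of 0.44 and 0.25 in Sol and 1.18 and 1.11 in Quad, 10 of 11 below 0 and a median difference of -0.79. Past 2-fold were Myh4, Mybpc2, Gpd1 (-1.32) and Mylk4 (-1.12), whereas Tnni2, fast troponin I, was at 0.027. The 3 slow fiber promoters were all above 0 (median 0.503), and so were 7 of 7 endothelial (0.346) and 5 of 5 macrophage promoters (0.464). Satellite cell markers had 2 of 2 above 0 (0.547) and adipocyte markers 2 of 3 (0.347). Fibroblast markers had 5 of 9 below 0 (-0.081), and smooth muscle and pericyte markers 3 of 4 (-0.055). Complex I (0.017) and complexes II to V (0.019) lay near 0, at the median of all shared promoters (0.055) or just below it. In H3K4me2 the fast fiber list was at -0.435 with 9 of 10 below 0, and the sarcomere list at -0.516 with 11 of 12.

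The authors' lists of differential H3K27ac regions, in which the libraries of both groups were normalized together, touched few shared promoters. Any overlap was counted. Of 382 regions higher in Ex 5 met shared promoters, and of 2280 lower in Ex 107 (4.69%) met 96 of them. Of 1828 higher in mTg 95 (5.20%) met 94, and of 844 lower in mTg 17 met 15. Counting only regions that lay mostly inside the shared promoter, the numbers were 5, 103, 92 and 15 in the same order. As shares of the classes, the regions lower in Ex touched 1.76% of shared promoters, 4.03% of start-spanning and 8.23% of distal regions. In the same order, the regions higher in mTg touched 1.73%, 2.89% and 4.01%, and those lower in mTg 0.276%, 0.444% and 1.53%. The regions higher in Ex touched 0.0918%, 0.0635% and 0.373%, so for this list the share was not below that of start-spanning regions. The lists hold regions that the authors picked for differing between these same libraries, so tests within them are no independent evidence. With limma and Benjamini-Hochberg adjustment over each list, 99.7%, 99.7%, 100% and 100% of all regions of the 4 lists passed 0.05, and all of those in shared promoters did. By the study's methods, Ex and Sed mice were caged singly and a Quad library was made from 1 animal. The p-values rest on the spread between 2 such libraries a group, which limma moderates over all regions of a list. Among regions lower in Ex the SE was the same, 0.215, at Asb5, Ky, Ttn and Myh4. It is therefore a spread shared over that list and not a region's own.

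Median differences in the shared promoters were 0.69 and -0.81 log2 in the Ex lists and 0.88 and -0.73 in the mTg lists, close to the 0.59, -0.76, 0.74 and -0.63 of the whole lists. The 5 regions higher in Ex were at 1600029O15Rik and Islr2 (0.75, SE 0.161, adjusted p = 0.000934 by limma), 1810008I18Rik (0.73), Col8a1, a short-chain collagen (0.69), Nupr1, a stress-induced chromatin protein (0.64), and Necap1 (0.48). All 5 were called without a library of Ex, none was without Sed replicate 1, and 4 were without Sed replicate 2; the lone library of a group is then assumed to vary like the other group. The 107 regions lower in Ex numbered 70 without Ex replicate 2. They were led by 2 regions inside the shared promoter of Asb5, a muscle ubiquitin ligase adaptor, with 9.77 and 9.39 in Sed and 8.41 and 8.19 in Ex (-1.28, SE 0.215, adjusted p = 2.14e-06 by limma) and with a difference of -1.19. Alpk2, a muscle kinase (-1.16), Faap100 (-1.14), Mylk4 (-1.11) and Myh4 (-1.08) followed. The Faap100 region (chr11:120383666-120390398) met only the edge of its shared promoter, which ends at 120383722.

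Among regions higher in mTg the largest differences were at Cxcl11, a chemokine (1.56, SE 0.131, adjusted p = 5.79e-10 by limma), Atp1b4, a muscle protein related to sodium pump beta subunits (1.3), Dhx32 (1.28), Zfp629 (1.23) and Crybb1 (1.21). At Cxcl11 the levels were 6.49 and 6.79 in Wt and 8.13 and 8.28 in mTg, and at Zfp629, where the region itself was annotated as a promoter, 7.38 and 7.26 in Wt and 8.60 and 8.50 in mTg. Among those lower in mTg, the region within the shared promoter of Elavl1, an RNA-binding protein, had 7.89 and 8.05 in Wt and 6.29 and 5.97 in mTg (-1.84, SE 0.135, adjusted p = 1.85e-09 by limma), and Syne1, which anchors nuclei (-1.14), Dlgap4 (-1.09), Prkag3, a regulatory subunit of AMPK in glycolytic muscle (-1.04), and Tmem100 (-1.01) followed. Many of these regions were smaller than the shared promoter that held them, and their own annotation was mostly intronic or intergenic: 44 of the 95 higher in mTg and 17 of the 107 lower in Ex were annotated as promoters themselves.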

How the data were processed

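H3K27ac and H3K4me2 ChIP-seq (32 libraries, 11.7 to 24.2 M and 6.41 to 22.7 M tags), MED1 and NFAT ChIP-seq (4 and 2 libraries) and 1 pooled ATAC-seq list were used. The submitters' processing notes name Bowtie 1.2 and HOMER. Builds are mm10, though some labels also name mm9. The ATAC header names no build and its positions were read as mm10. The deposited log2 values were made by the authors with HOMER and DESeq2 from tags in peaks called over both replicates against input, separately in each list, and are taken here to be regularized logarithms. The authors' p-value and fold of target over input entered only alternatives with stricter peaks. The deposited MED1 and NFAT peak score is, per the authors' HOMER lists, tags scaled to a common library size. The deposited ATAC signal is tags per peak scaled by the authors to 10000000 tags.

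Peaks were merged with bedtools 2.31.1 at an overlap of at least 1 bp. A region's level in a library was the log2 of its summed linear values divided by the summed width in kb of that list's peaks. The authors' promoter annotation runs from 1000 bp before to 100 bp after a start site. Gene starts came from the GENCODE basic annotation of the mm10 assembly, promoter sequences from RefSeq on GRCm38.p6. Gene names damaged by spreadsheet dates (777) were restored from gene IDs, and 18 further columns of input libraries were not used. Groups were compared by exact sign-flip permutation and, inside the 4 lists of differential regions, by limma 3.58.1 in R 4.3.3 with Benjamini-Hochberg adjustment at 0.05. Other steps ran in Python 3.11.15 with pandas 2.3.3, numpy 2.4.6 and scipy 1.17.1. On simulated data made from each differential list, a minority of the regions was moved and the rest were left unchanged. Of 48 changes of 1 log2, limma recovered 95.83% for the list higher in Ex (382 regions). Of 100 such changes each, it recovered 74% for the list lower in Ex (2280), 92% for that higher in mTg (1828) and 100% for that lower in mTg (844). It called 1.39%, 0.289%, 0.491% and 1.86% of the other regions. Nearly all regions of the real lists passed, so the setting differs and these rates do not describe the tests on them.

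The genes named were the 10 highest and 5 widest shared promoters, the 5 steadiest in percentile, the 5 largest differences each way between Sol and Quad and between EDL with Quad and Sol with Dia, the 5 largest in each differential list, those at the class limits, up to 10 with MED1 in all 4 muscles, and members of gene lists. The members, the 29 gene lists and the 15 motifs were chosen with earlier results of these data known. Fold and p columns of the authors' comparisons between groups were not used. ATAC lists and footprints of the other conditions were not used here. A few genes that the naming rule picked are not reported here. Alternatives included stricter peaks, other definitions of level, other overlaps and each replicate left out.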

Additional observations from a re-analysis of the deposited data

How the results depend on the processing

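Counts of shared promoters over 2-fold apart depended most on the division by peak width. No share over all common regions was counted for the alternatives given here. Without it the H3K27ac counts were 375 for Sol and Quad, 467 for Dia and Quad, 254 for EDL and Sol, 307 for EDL and Dia, 190 for EDL and Quad, 202 for Sol and Dia, 322 for Ex and Sed and 422 for mTg and Wt, and those of H3K4me2 in the same order 128, 117, 71, 74, 62, 54, 70 and 141. With the strongest peak alone, H3K4me2 gave 12 for EDL and Quad. With 1 library left out in turn, the H3K27ac counts ran from 30 to 57 for EDL and Quad, 40 to 57 for Sol and Dia, and 52 to 141 for Ex and Sed, and those of H3K4me2 from 10 to 14 for EDL and Dia, 5 to 11 for EDL and Quad, 3 to 5 for Ex and Sed and 16 to 58 for mTg and Wt. Regions of the differential lists in shared promoters ran from 0 to 5 (higher in Ex) and 70 to 106 (lower in Ex), the lone library of a group being assumed to vary like the other group. With the number of MED1 peaks fixed at that of EDL, MED1 shares were 7.07% in Quad, 6.85% in Sol and 8.06% in Dia. Among regions of 2 to 4 kb, MED1 was in 16.9% in Sol and 14.0% in Dia, NFAT in 2.29% in Sol and ATAC in 95.9%. The class held 2242 regions when all 4 muscles had to carry the annotation and 8577 when a peak had only to span a start site. The cause of the other changes was not tested.

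The higher H3K4me2 of shared promoters was positive in 8 of 8 groups under all alternatives run, between 0.155 and 1.29 log2, and that of H3K27ac between 0.187 and 1.21 in 4 of 4. With the replicate block, the numbers of regions called in the 4 differential lists were 5, 107, 95 and 17, as without it, and 17 with the numbers crossed in the list lower in mTg, so it changed no call. Same-numbered libraries correlated at 0.144, 0.106, -0.039 and -0.242 in these lists, and no label ties them. The comparisons with start-spanning, distal and 2 to 4 kb regions, the crossed block, the list medians and the authors' gene names were alternatives chosen after seeing the data. The shallowest library was 1 of the H3K4me2 libraries of mTg, with 6.41 M tags.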
